A study of Mus musculus with 12 samples.

Results

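Costimulatory and checkpoint ligands are surface and secreted proteins with which antigen-presenting cells raise or restrain the activity of T cells. The transcripts of 8 of them, Cd40, Cd80, Cd86, Cd274, Pdcd1lg2, Icosl, Cd48 and Lgals9, were followed among the 43278 gene symbols measured in cultured mouse peritoneal macrophages (PMφs). The genes are a list of names, drawn up with earlier results of these data known.

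PMφs came from young adult WT C57BL/6J mice of both sexes and were washed out of the peritoneal cavity 4 days after an injection of 4% thioglycolate, an irritant that draws macrophages into the cavity. The cells of the littermates of an experiment were pooled and divided among the 4 groups, and those that adhered were used after 18 h in culture. Control cells received neither agent. The oxLDL group was cultured for 24 h with human medium oxidized low-density lipoprotein at 100 µg/ml. The LPS group received ultrapure LPS at 10 ng/ml, and the oxLDL+LPS group received oxLDL and then LPS. How long LPS was present before these libraries were made is not given in the sources used here. Each group held 3 libraries, numbered 1 to 3. All cells were elicited and cultured in the same way, so the controls are thioglycolate-elicited cells too. By the study's methods a replicate was taken to be a pool of animals and not an animal.

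T cells need a signal from costimulatory receptors beside that from the antigen receptor, and ligands on macrophages and dendritic cells give it. CD80 and CD86, the B7 proteins, bind CD28 and the inhibitory receptor CTLA-4, ICOSL binds ICOS, and CD48 binds CD244 and, in mice, CD2. PD-L1, encoded by Cd274, and PD-L2, encoded by Pdcd1lg2, bind the inhibitory receptor PD-1. CD40 works in the other direction: it is the receptor through which CD40 ligand on T cells activates the macrophage. Galectin-9, encoded by Lgals9, binds sugars on the cell surface, and TIM-3 is among its receptors. LPS acts through TLR4, whose adaptors lead to NF-κB and, by way of type I interferon, to interferon-stimulated genes.

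In the GRCm38 gene models, Cd274 lies on chromosome 19 (chr19:29367455-29388095, plus strand) and Pdcd1lg2 lies 22.8 kb downstream of it (chr19:29410919-29471161, plus strand). The B7 genes share chromosome 16, with Cd86 at chr16:36603869-36666081 on the minus strand and Cd80 at chr16:38455561-38496335 on the plus strand. Cd40 is at chr2:165055627-165072948 on the plus strand and Icosl at chr10:78069302-78083913 on the plus strand. Cd48 is at chr1:171682009-171705258 on the plus strand and Lgals9 at chr11:78962974-78984946 on the minus strand. Antisense genes overlap Cd274 (AC119228.1) and Pdcd1lg2 (A930007I19Rik), and Gm37010 overlaps Cd48 on its own strand. The libraries were directional, but whether the counting used the strand is not given in the sources used here, so reads of these overlapping genes could not be told apart.

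RefSeq promoters (GRCm38.p6) were at hand for 6 of the 8 genes, all but Cd40 and Cd86, and the 250 bases before the start were searched on both strands for 5 motifs. These were the κB motif, the interferon-stimulated response element ISRE as GAAANNGAA, the GAS element as TTCNNNGAA, the AP-1 site as TGANTCA and the TATA box as TATAAA. Of the promoters, 4 held a match, and they are shown, 5′ to 3′ on the strand of the gene, because they set apart the 2 genes with an ISRE from the others. Capitals mark the match, which in the first pair is the ISRE read on the opposite strand, in the third the AP-1 site and in the last the κB motif.
Cd274 (chr19:29367188-29367437, plus strand): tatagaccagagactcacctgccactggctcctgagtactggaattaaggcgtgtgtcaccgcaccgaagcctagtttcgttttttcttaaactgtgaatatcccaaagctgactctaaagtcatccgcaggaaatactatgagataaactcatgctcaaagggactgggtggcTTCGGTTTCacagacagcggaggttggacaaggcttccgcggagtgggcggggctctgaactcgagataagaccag
Lgals9 (chr11:78984925-78985174, minus strand): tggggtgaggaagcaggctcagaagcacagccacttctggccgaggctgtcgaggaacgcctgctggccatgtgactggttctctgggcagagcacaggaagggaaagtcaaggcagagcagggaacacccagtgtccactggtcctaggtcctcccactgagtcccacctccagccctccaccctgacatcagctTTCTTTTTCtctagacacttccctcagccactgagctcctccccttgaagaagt
Cd80 (chr16:38458683-38458932, plus strand): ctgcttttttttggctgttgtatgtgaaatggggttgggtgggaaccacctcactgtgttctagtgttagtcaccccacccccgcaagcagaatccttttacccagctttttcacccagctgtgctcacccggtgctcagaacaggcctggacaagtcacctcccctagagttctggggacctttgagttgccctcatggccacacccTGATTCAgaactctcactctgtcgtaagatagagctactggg
Pdcd1lg2 (chr19:29410669-29410918, plus strand): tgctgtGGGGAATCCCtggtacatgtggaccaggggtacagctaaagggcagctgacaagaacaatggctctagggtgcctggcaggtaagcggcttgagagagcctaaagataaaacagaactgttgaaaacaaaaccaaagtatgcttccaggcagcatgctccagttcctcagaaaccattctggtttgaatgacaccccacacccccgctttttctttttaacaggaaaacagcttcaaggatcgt

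The ISRE of Cd274 began 76 bases and that of Lgals9 54 bases before the start, the AP-1 site of Cd80 42 bases and the κB motif of Pdcd1lg2 244 bases before it. The start is that of RefSeq, which for Cd80 lies 3.37 kb inside the gene model given above, and for the other 5 genes within 66 bases of where the model begins. None of the 5 motifs was found in the 250 bases before Icosl or Cd48. Among 32851 RefSeq promoters of the same length, 7.13% held the ISRE, 6.75% the AP-1 site, 3.9% the κB motif, 7.02% the GAS element and 12.4% the TATA box. A match describes letters and does not show that a factor binds there.

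The values are the normalized counts that the authors deposited, which are read counts multiplied by 1 factor per library. They summed to between 17152972 and 17709731 in libraries without LPS and between 22071853 and 26384551 in libraries with it. The totals thus parted by LPS. From the spacing of a library's values its factor could be estimated, and by these factors the libraries held about 16700000 to 26200000 reads. All 9 macrophage markers listed were present, with summed values from 235591 to 350836. Markers of other cells were far lower for B cells (160 to 341), T and NK cells (21 to 246), neutrophils (31 to 258) and eosinophils and mast cells (87 to 439). Ly6g and Prg2 were at 0 in all 12 libraries, and Cd3d, Cd3e and Cd3g never exceeded 2. Lck, a T cell kinase, had values of 16 to 18 in control and 102 to 234 in LPS libraries, and S100a8, a neutrophil gene, 31 to 37 and 74 to 178. Siglecf, an eosinophil gene, had 315 to 383 and 99 to 124. The 8 dendritic cell markers summed to 73 to 110 in control, 66 to 94 in oxLDL, 119 to 144 in LPS and 90 to 139 in oxLDL+LPS libraries. Between LPS and control, Zbtb46 was called higher by 1.00 (limma adjusted p = 0.01353) and Ccr7 by 2.68 (limma adjusted p = 0.04194), and Clec9a fell by 2.16 (limma adjusted p = 0.005278). The 8 markers of mesothelial cells and fibroblasts summed to 4495 to 27840 and followed the replicate number, with the lowest sum in replicate 3 of every group. The part of these cells in the results below was not tested. Bulk RNA cannot tell apart a change in the number of cells of a type and a change in RNA per cell.

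Per kb of exon, the scale on which genes can be set side by side, Cd48 was the most abundant of the 8 transcripts in control PMφs at 1534 ± 331 (SD, n = 3), ahead of Cd274 at 739.7 ± 81.9 and Lgals9 at 449 ± 61.8. Cd80 at 34.7 ± 1.49 and Cd86 at 33.8 ± 7.09 were within their spread of each other, and Cd40 followed at 11.5 ± 0.587. Icosl at 5.84 ± 0.750 and Pdcd1lg2 at 3.91 ± 1.47 were lowest. The order was the same in the oxLDL group, from Cd48 at 1597 ± 283 to Pdcd1lg2 at 3.57 ± 2.70.

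With LPS, the order per kb changed. Cd274 was first at 13661 ± 1713 and made up 48.0% ± 2.93 of the summed level of the 8 transcripts, against 26.4% ± 0.795 in control cells. Lgals9 at 5874 ± 764 and Cd40 at 5863 ± 2330 came next and did not differ beyond their spread. Cd48 was in the fourth place at 2283 ± 476, with 7.97% ± 0.839 of the sum against 54.2% ± 4.35 in control cells. Below it stood Cd86 at 480.7 ± 55.5, Icosl at 346.8 ± 152, whose spread reaches that of Cd86, Cd80 at 137 ± 64.9 and Pdcd1lg2 at 12.1 ± 3.83. The oxLDL+LPS group had the same order, with Cd274 at 10963 ± 1621 per kb and 49.0% ± 0.701 of the sum.

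**Figure D1:**
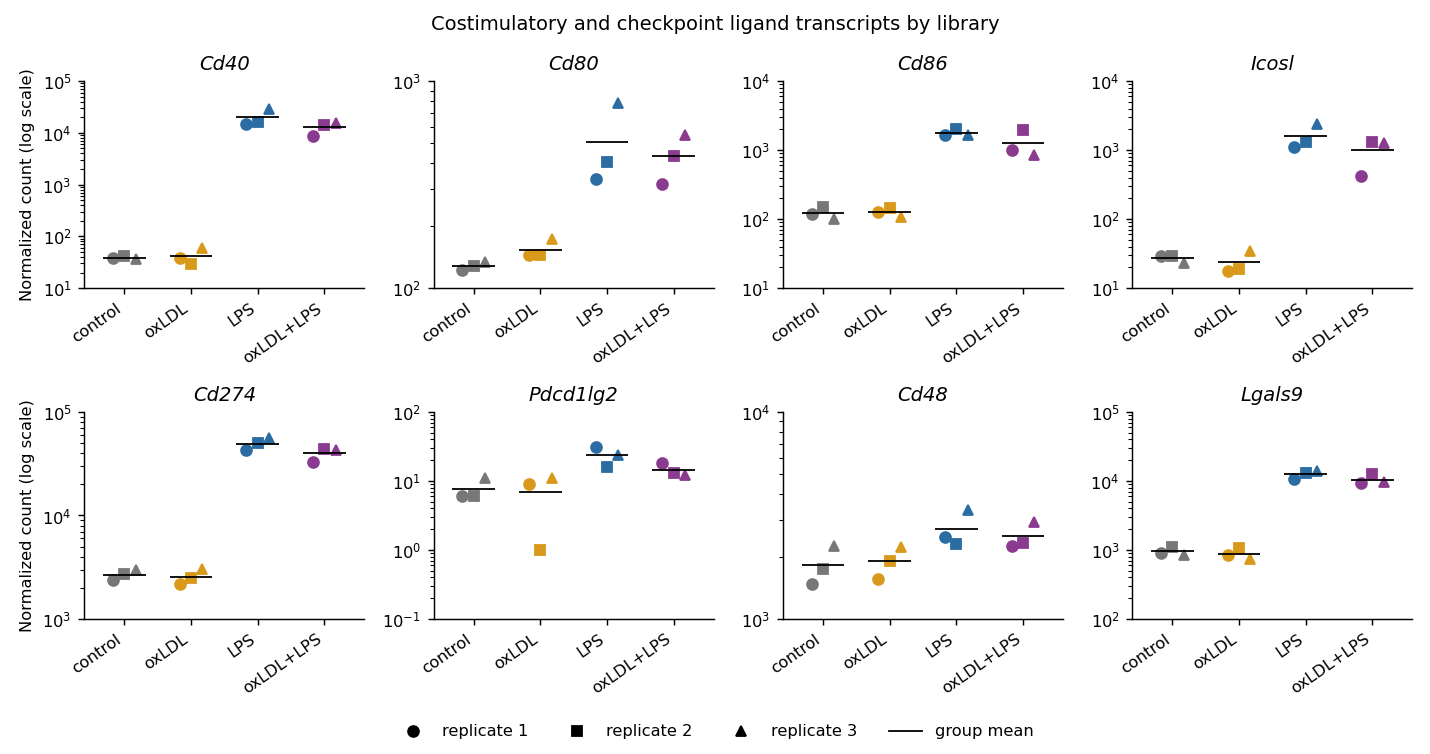
Normalized counts of the 8 transcripts (log axis, a different range in each panel) in the 12 libraries, by group; the symbol gives the replicate number and the line the mean of 3 libraries. For each gene the LPS libraries lie above all control libraries, and the oxLDL+LPS libraries overlap those of the LPS group.

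The first question was how LPS changed the ligands in PMφs without oxLDL. All 8 transcripts were higher in the LPS group than in control cells by limma at a Benjamini-Hochberg adjusted p under 0.1. For each of them the lowest LPS library exceeded the highest control library. Among the 8, Pdcd1lg2 reached the level needed for testing only through its LPS libraries, which favoured its call as higher. LPS moved much of the transcriptome: of 13023 genes tested, 31.4% were called higher and 30.3% lower, and 32.1% had all LPS libraries above all control libraries. The median difference over the 8 transcripts was 3.77 on the log2(value + 1) scale, against -0.00097 over all genes tested. Libraries rescaled to the same total moved that median of all genes to -0.48 and the calls from 4093 higher and 3946 lower to 2210 higher and 7200 lower. With quantile normalization the median was -0.14, with 3243 higher and 4816 lower. An exact permutation test of 3 libraries against 3 cannot give a p below 0.1, so the tests rest on the fit across all genes.

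Cd40 had the largest change of the 8. Its normalized count was 39, 41 and 37 in the control libraries and 38, 29 and 60 in the oxLDL libraries. LPS libraries held 14731, 16081 and 29100, and oxLDL+LPS libraries 8754, 14085 and 15312. The transcript was thus near the low end of detection without LPS and among the abundant ones with it, with replicate 3 of the LPS group standing above the other two. The log2 difference between LPS and control was 8.90 (SE 0.24, limma adjusted p = 2.352e-07). In oxLDL-loaded cells the difference between oxLDL+LPS and oxLDL was 8.22 (SE 0.30, limma adjusted p = 1.458e-06).

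Icosl, the ligand of ICOS, also rose from a low level. Control libraries had normalized counts of 29, 29 and 23 and oxLDL libraries 18, 19 and 34. With LPS the values were 1100, 1300 and 2407, and with oxLDL+LPS 426, 1289 and 1256. All libraries with LPS exceeded all without it by more than an order of magnitude, and the spread among them was wide, with a CV of 43.9% in the LPS group and 49.4% in the oxLDL+LPS group. LPS raised Icosl by 5.76 on the log2 scale (SE 0.28, limma adjusted p = 2.726e-06), and in oxLDL-loaded cells by 5.22 (SE 0.46, limma adjusted p = 1.010e-04).

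The B7 genes were at like levels without LPS and parted with it. Cd86 had normalized counts of 118, 152 and 101 in control, 126, 143 and 108 in oxLDL, 1650, 1994 and 1635 in LPS and 987, 1971 and 863 in oxLDL+LPS libraries. Cd80 had 123, 128 and 134 in control, 144, 145 and 172 in oxLDL, 336, 407 and 783 in LPS and 317, 433 and 548 in oxLDL+LPS libraries. LPS raised Cd86 by 3.83 (SE 0.17, limma adjusted p = 1.422e-06) and Cd80 by 1.88 (SE 0.29, limma adjusted p = 0.001004) on the log2 scale. In oxLDL-loaded cells the differences were 3.24 (SE 0.30, limma adjusted p = 1.282e-04) and 1.46 (SE 0.21, limma adjusted p = 0.001028). Per kb, the ratio of Cd86 to Cd80 was 0.98 ± 0.22 in control and 0.84 ± 0.19 in oxLDL libraries (SD, n = 3). It was 4.01 ± 1.64 in LPS libraries, from 2.11 to 4.97, and 3.12 ± 1.51 in oxLDL+LPS libraries, from 1.59 to 4.60. No ratio without LPS exceeded 1.20, so the ranges with and without LPS did not overlap, which is a description of the pair.

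The ligands of PD-1 were far apart in level. Cd274 had normalized counts of 2368, 2711 and 2959 in control and 2162, 2482 and 3010 in oxLDL libraries. It reached 43221, 49585 and 55630 with LPS and 32952, 43601 and 42565 with oxLDL+LPS. The rise of Cd274 was even across the replicate numbers, at 4.19, 4.19 and 4.23 on the log2 scale, and the difference from control was 4.20 (SE 0.13, limma adjusted p = 3.827e-07). In oxLDL-loaded cells it was 3.96 (SE 0.16, limma adjusted p = 2.541e-06).

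Pdcd1lg2 was barely detected. Its normalized counts were 6, 6 and 11 in control, 9, 1 and 11 in oxLDL, 31, 16 and 24 in LPS and 18, 13 and 12 in oxLDL+LPS libraries, and by the factor of each library these values stand for about 1.06 to 28.9 reads. The LPS libraries were all above the control libraries, with a log2 difference of 1.51 (SE 0.40, limma adjusted p = 0.01357). Pdcd1lg2 reached the level needed for testing only through its LPS libraries, which favoured this call as higher. Between oxLDL+LPS and oxLDL the groups did not overlap either, but the difference of 1.28 had a 95% interval from -0.37 to 2.94 and was not called (limma adjusted p = 0.1767). Per kb, Cd274 exceeded Pdcd1lg2 by a ratio of 201 ± 50.6 in control and 1229 ± 462 in LPS libraries (SD, n = 3). It was 541 ± 696 in oxLDL libraries, where the library with a Pdcd1lg2 value of 1 gave 1344, within the range of the LPS group (755 to 1678), and 1576 ± 509 in oxLDL+LPS libraries. With so few reads of Pdcd1lg2 the ratio is imprecise.

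Lgals9 had a response close in size to that of Cd86 (3.83) and below that of Cd274 (4.20). Normalized counts were 912, 1109 and 858 in control, 839, 1085 and 744 in oxLDL, 10727, 13054 and 13876 in LPS and 9302, 12579 and 9521 in oxLDL+LPS libraries. All libraries with LPS stood far above all libraries without it. LPS raised Lgals9 by 3.71 (SE 0.14, limma adjusted p = 6.888e-07), and in oxLDL-loaded cells by 3.56 (SE 0.17, limma adjusted p = 5.537e-06), on the log2 scale.

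Cd48, the most abundant of the transcripts at rest, had the smallest response. Its normalized counts were 1476, 1744 and 2250 in control, 1562, 1899 and 2234 in oxLDL, 2491, 2293 and 3358 in LPS and 2255, 2338 and 2927 in oxLDL+LPS libraries. The groups did not overlap, but the highest control library lay just below the lowest LPS library. The log2 difference was 0.58 (SE 0.19, limma adjusted p = 0.0351), and in oxLDL-loaded cells 0.41 (SE 0.16, limma adjusted p = 0.06775). Both calls depended on the scaling. Rescaled to the same total, the differences were 0.09 (limma adjusted p = 0.6421) and 0.02 (limma adjusted p = 0.9317), which is 0.57 and 0.42 above the median of all genes. The first call was also lost without control replicate 1 (0.43, limma adjusted p = 0.1162) or LPS replicate 3 (0.41, limma adjusted p = 0.103). The second was also lost without oxLDL replicate 1 (0.27, limma adjusted p = 0.2004), oxLDL replicate 2 (0.41, limma adjusted p = 0.1397) or oxLDL+LPS replicate 3 (0.29, limma adjusted p = 0.1924).

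In oxLDL-loaded cells, 7 of the 8 transcripts were called higher with LPS, all but Pdcd1lg2, and all 8 had non-overlapping groups. Of 12900 genes tested there, 28.2% were called higher and 26.3% lower, and 29.6% had all oxLDL+LPS libraries above all oxLDL libraries. The median difference over the 8 transcripts was 3.40, against -0.02 over all genes. The calls over all genes moved from 3633 higher and 3397 lower to 2055 higher and 6617 lower with libraries rescaled to the same total.

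**Figure D2:**
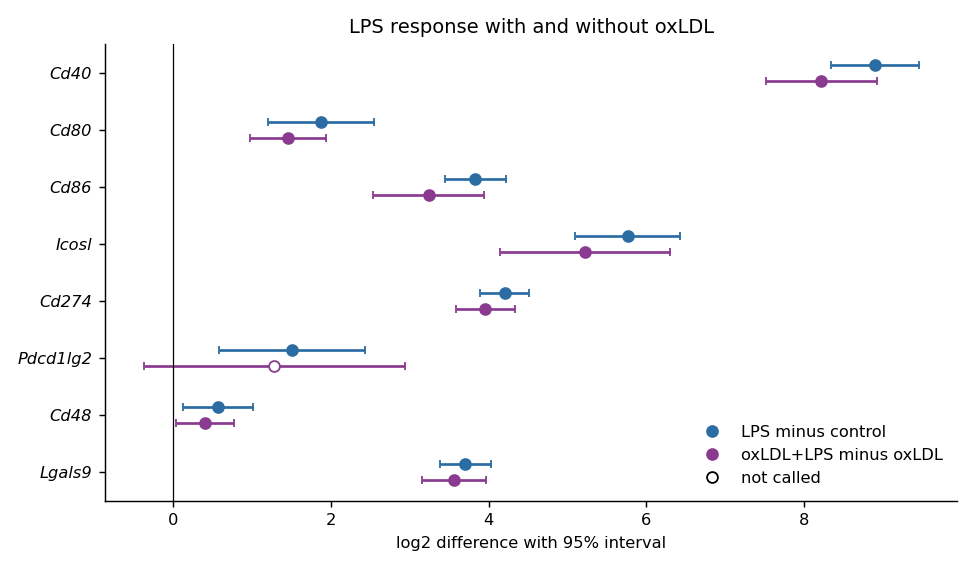
Difference made by LPS in each transcript on the log2(value + 1) scale, with its 95% interval from limma, without oxLDL (3 LPS against 3 control libraries) and with it (3 oxLDL+LPS against 3 oxLDL libraries); an open point was not called at an adjusted p under 0.1. Cd40 has the largest differences, 8.90 and 8.22, and Cd48 the smallest, 0.58 and 0.41.

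The second question was whether oxLDL alone changed the ligands. Of the 7 transcripts tested, none was called (limma, each adjusted p = 1), and none had an unadjusted p under 0.05. Pdcd1lg2 did not reach a value of 10 in 3 of these 6 libraries and was not tested. Of 12751 genes tested, 0% were called, and 381 had an unadjusted p under 0.05. With the replicate number as a block, 4.71% of the genes were called and none of the 7 transcripts. In that fit 2 of the 7, Cd80 and Lgals9, had an unadjusted p under 0.05, as had 2047 of the 12751 genes.

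Cd80 was the sole member whose oxLDL libraries all lay above the control libraries, as 3.79% of all genes tested did. The difference was 0.25 on the log2 scale, with a 95% interval from -0.04 to 0.54, and it was positive in each replicate number, at 0.23, 0.18 and 0.36. With the block its adjusted p was 0.2499 by limma. Cd274 differed by -0.08, with an interval from -0.39 to 0.24, and Cd86 by 0.03, with an interval from -0.40 to 0.47. Cd48 differed by 0.06 and Lgals9 by -0.12. Cd40 (0.05, from -0.60 to 0.71) and Icosl (-0.23, from -0.94 to 0.48), both at low counts, had the widest intervals of the 7.

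The third question was whether oxLDL changed the level reached with LPS. In the comparison of oxLDL+LPS with LPS all 8 differences were negative, with a median of -0.44 against -0.01 over all genes. None was called, and none had an unadjusted p under 0.05 (limma, lowest adjusted p of the 8 = 0.7371). The groups overlapped for all 8 transcripts. Of 12786 genes tested, 0% were called by this fit, and 890 had an unadjusted p under 0.05.

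Within the replicate numbers the differences were of unequal size. Cd40 was lower in oxLDL+LPS than in LPS by -0.75, -0.19 and -0.93 on the log2 scale in replicates 1, 2 and 3, Cd86 by -0.74, -0.02 and -0.92, and Icosl by -1.37, -0.01 and -0.94. Cd274 had -0.39, -0.19 and -0.39, Lgals9 -0.21, -0.05 and -0.54, and Pdcd1lg2 -0.75, -0.28 and -0.94. Cd80, at -0.08, 0.09 and -0.51, and Cd48, at -0.14, 0.03 and -0.20, were higher in replicate 2. For 6 of the 8 transcripts all 3 numbers thus had the same sign, and replicate 2 held the difference nearest to 0 for 7 of the 8, the exception being Cd80. The share of all genes with such a pattern was not counted. The 8 were measured in the same libraries, so these counts are not of separate observations.

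With the replicate number as a block, 3 of the 8 transcripts were called lower by limma, beside 8.74% of all genes tested. Cd40 fell by 0.62 (block SE 0.14, adjusted p = 0.03067), Icosl by 0.77 (block SE 0.20, adjusted p = 0.05013) and Cd86 by 0.56 (block SE 0.15, adjusted p = 0.05151) on the log2 scale. On the linear scale these were 35.1%, 41.4% and 32.1% lower. Cd274 (-0.32, adjusted p = 0.1658), Lgals9 (-0.27, adjusted p = 0.1688), Pdcd1lg2 (-0.66, adjusted p = 0.2418), Cd80 (-0.17, adjusted p = 0.4198) and Cd48 (-0.10, adjusted p = 0.4449) were not called. The 3 calls depended on single replicate numbers and on the scaling. Without replicate 1 or without replicate 3 the block called none of the 8. Without replicate 2 it called 6 of them among 2945 genes in all, more than the 1682 genes called with every replicate. With libraries rescaled to the same total, or with quantile normalization, the block called Cd40 alone. That rescaling also turned the split of all genes called with the block from 565 higher and 1117 lower to 1010 higher and 564 lower.

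The summed mesothelial and fibroblast markers moved with the replicate numbers here. They were 27840, 13497 and 5262 in the LPS libraries and 15800, 14729 and 4495 in the oxLDL+LPS libraries, thus lower with oxLDL in replicates 1 and 3 and higher in replicate 2. With the block, Siglecf (99, 115 and 124 in LPS, 66, 104 and 55 in oxLDL+LPS libraries), Lck (102, 234 and 194 against 79, 200 and 112), Upk3b and the macrophage markers Cd14 and Mertk were also called lower, and S100a8 (74, 97 and 178 against 134, 118 and 248) higher. The part of these markers in the differences of the ligands was not tested.

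**Figure D3:**
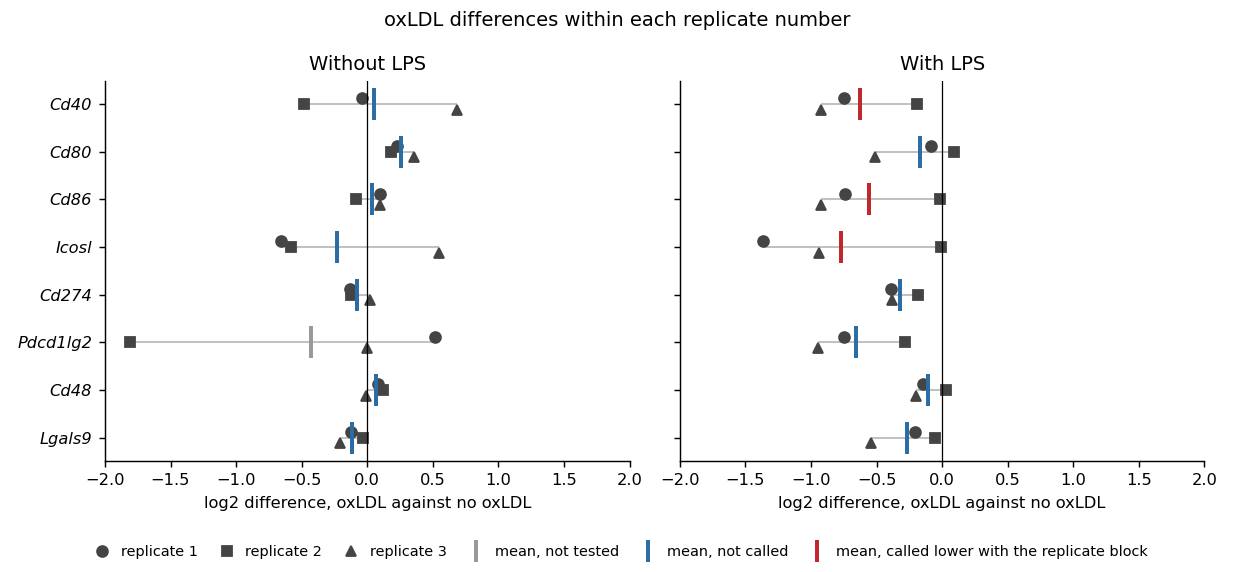
Difference between cells with and without oxLDL within each replicate number, on the log2(value + 1) scale, without LPS (left) and with LPS (right); symbols are replicate numbers and vertical ticks the mean of 3. With LPS, Cd40, Cd86 and Icosl have differences of -0.74 or beyond in replicates 1 and 3 and between -0.19 and -0.01 in replicate 2.

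Whether oxLDL changed the response to LPS itself was tested as the interaction over all 12 libraries. It was negative for all 8 transcripts, with a median of -0.33, and none was called with or without the block, as was the case for 0% of 13482 genes. Without the block 418 genes and none of the 8 had an unadjusted p under 0.05 (limma, smallest adjusted p over all genes = 0.9999). With the block 967 genes, and among the 8 Cd86 and Cd274, had one (smallest adjusted p over all genes = 0.657). Without the block, the interaction of Cd40 was -0.68, with a 95% interval from -1.61 to 0.26. That of Cd86 was -0.59, from -1.42 to 0.23, and that of Icosl -0.54, from -1.85 to 0.77. Cd274 had -0.24, from -0.72 to 0.23. These intervals of the 4 transcripts include 0 and reach further below it than above. With the block, the intervals of Cd86 (-1.07 to -0.11) and Cd274 (-0.47 to -0.01) lay below 0. Those of Cd40 and Icosl still included it.

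The ligands belong to wider families, and 6 lists of related genes were used to place them. Among 18 other costimulatory and checkpoint ligands, 13 could be tested between LPS and control, of which 11 were called higher and 2 lower, with a median of 2.504, beside 31.4% higher and 30.3% lower over all genes. Tnfsf4, Tnfsf8, Tnfsf15 and Tnfsf18 were below 10 in all control libraries and passed the filter only through their LPS libraries. The filter thus favoured their calls as higher and raised the count and median of the list. Between oxLDL and control, 9 genes of the list could be tested. Tnfsf15, a ligand of the TNF family, rose from 5.67 ± 1.53 to 4388 ± 1621 (SD, n = 3), a log2 difference of 9.32 (limma adjusted p = 4.097e-07). Tnfsf9, the ligand of 4-1BB, rose from 22.7 ± 9.71 to 2540 ± 383, by 6.83 (limma adjusted p = 2.043e-06). Icam1, the ligand of the integrin LFA-1, rose by 5.66 (limma adjusted p = 2.682e-06). The checkpoint gene Vsir, listed under its older symbol 4632428N05Rik, encodes VISTA and went the other way, from 10386 ± 317 to 1919 ± 210, a log2 difference of -2.44 (limma adjusted p = 1.306e-06). These directions were the same under both other scalings.

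Of 16 counter-receptors known mainly from lymphocytes, only 6 reached the filter, and 2 of them were called higher and 2 lower, shares near those over all genes. Havcr2, which encodes TIM-3, fell by 3.99 (limma adjusted p = 1.075e-06), from 569.3 ± 64.1 to 35 ± 4.36. Cd28, the receptor of the B7 proteins, fell by 4.05 (limma adjusted p = 5.999e-05). Lag3, a receptor of MHC class II, rose by 3.91 (limma adjusted p = 0.00202) from 1.67 ± 1.53, and Btla, an inhibitory receptor, by 1.29 (limma adjusted p = 0.01438). Lag3 passed the filter only through its LPS libraries, which favoured its call as higher. Ctla4, Icos and Pdcd1, the partners of the B7 proteins, ICOSL and the PD-1 ligands, had group means of at most 2.33.

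Of 7 other receptors of the SLAM family, to which CD48 belongs, 6 were called higher with LPS and Cd84 lower. Over all genes the shares were 31.4% higher and 30.3% lower. Cd244, the SLAM family partner of CD48, was listed with the counter-receptors and was not called (-0.39, limma adjusted p = 0.2348). Slamf1 rose by 7.27 (limma adjusted p = 4.594e-06), Slamf9 by 3.43 (limma adjusted p = 2.960e-05), Slamf8 by 2.29 (limma adjusted p = 1.145e-05) and Slamf7 by 2.10 (limma adjusted p = 1.526e-05). Slamf1, at most 1 in control libraries, passed the filter only through its LPS libraries, which favoured its call. The call of Ly9 was lost with quantile normalization. The other galectins did not share the rise of Lgals9 as a group: of 7, 4 were tested, and Lgals8 was called higher by 1.44 (limma adjusted p = 5.956e-05). Lgals4 fell by 1.31 (limma adjusted p = 0.01297) and Lgals1 by 0.25 (limma adjusted p = 0.09569). Lgals3 differed by -0.42 (limma adjusted p = 0.1066).

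Of 11 adaptors and kinases of CD40 signalling, 10 were called higher and none lower, beside 31.4% higher and 30.3% lower over all genes. Traf1 rose by 5.72 (limma adjusted p = 6.726e-07), Birc3 by 3.00 (limma adjusted p = 6.988e-06), Traf5 by 2.12 (limma adjusted p = 1.094e-05) and Traf2 by 1.93 (limma adjusted p = 8.131e-06). Traf3, Traf6 and Chuk, at 0.35 to 0.37, were lower by size once libraries were rescaled to the same total, and their calls were lost. Quantile normalization ended these calls too, and each of the other scalings left 7 of the 11 called higher. Of 19 transcription factors and regulators of PD-L1, 17 were called higher and 2, Cmtm4 and Ifngr1, lower. Irf1 rose by 5.11 (limma adjusted p = 8.702e-07), Stat2 by 4.49 (limma adjusted p = 3.341e-07) and Jak2, a kinase of the interferon-γ receptor, by 3.93 (limma adjusted p = 5.816e-07). Ifngr2, at 0.37, turned negative under both other scalings. Quantile normalization left 15 of the 19 higher and 3 lower, and ended the call of Jak1.

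Without LPS, the fit without the block called none of the tested genes of these lists between oxLDL and control. With the block, Cd28 (-0.48), Rel (-0.34), Stat2 (-0.25) and Traf3 (-0.20) were lower with oxLDL and Ly9 (0.29) was higher. Between oxLDL+LPS and LPS that fit called none of them either. With the block, 8 of the 13 other ligands tested were called lower and none higher, with a median of -0.53, beside 8.74% lower and 4.42% higher over all genes. They were Tnfsf15 (-1.27), Tnfsf4 (-1.06), Tnfsf9 (-0.89), Cd83 (-0.86), Cd200 (-0.53), Pvrl2 (-0.48), Tnfrsf14 (-0.40) and Pvr (-0.25). Rescaling to the same total or quantile normalization removed the calls of Pvr and Pvrl2, left 6 and added 4632428N05Rik as higher. In the same fit, 7 of 19 regulators of PD-L1 were lower, namely Rel, Stat3, Ifnar1, Nfkb2, Jak2, Nfkb1 and Cmtm6, from -0.64 to -0.37. Of the SLAM receptors 3 were lower (Slamf1, Slamf9 and Slamf7) and 1 higher (Ly9). Of the CD40 adaptors 3 were lower (Traf1, Birc3 and Ikbkb) and 1 higher (Map3k14). Of the counter-receptors Btla and Lag3 were lower, both at low counts. Their means were 22.3 and 38.7 in LPS libraries and 7.67 and 14 in oxLDL+LPS libraries. Under both other scalings the calls of Btla, Lag3, Slamf7, Slamf9, Ikbkb and Nfkb1 were lost, and with quantile normalization also those of Map3k14, Birc3, Jak2, Nfkb2 and Cmtm6. None of the 4 other galectins tested was called, and none of the lists held a call in the interaction.

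**Figure D4:**
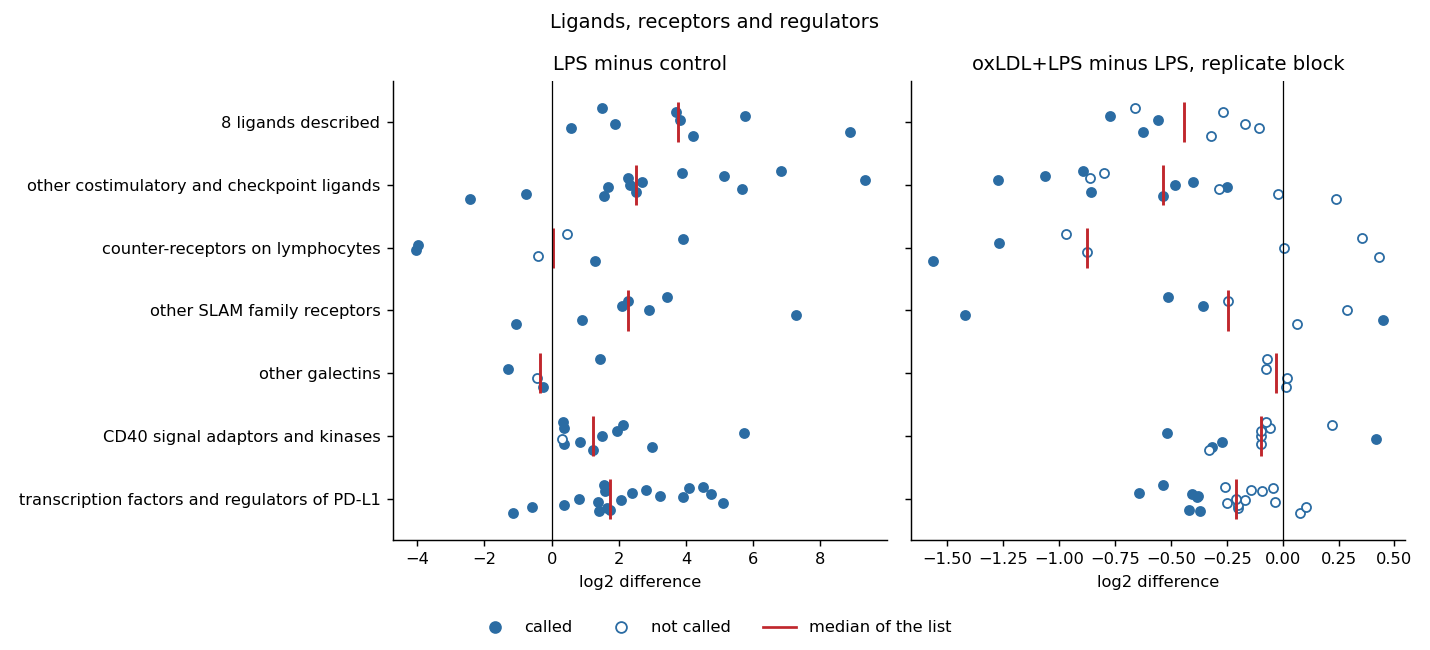
Log2 differences of the tested genes in 7 lists (each point a gene) between LPS and control (left) and between oxLDL+LPS and LPS with the replicate block (right); filled points were called at an adjusted p under 0.1 and the red line is the median of the list. The 8 ligands described have medians of 3.77 and -0.44, and the other ligands 2.504 and -0.53.

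For each ligand the transcripts with the most similar profile were sought by Pearson r over the 12 libraries among 11969 genes, as a description, since all libraries share the split between cells with and without LPS. Cd40 was closest to Pml (r = 0.999) and Nlrc5 (r = 0.999), Cd274 to Xaf1 (r = 0.999) and Mndal (r = 0.999), and Lgals9 to Enpp4 (r = 0.999) and Tor3a (r = 0.999). Icosl was closest to Arel1 (r = 0.997) and Trim26 (r = 0.997), and Cd86 to Cxcl9 (r = 0.996) and Fmr1 (r = 0.996). Cd80 was closest to Fbxo42 (r = 0.991) and Dr1 (r = 0.988) and Cd48 to Atp5k (r = 0.965) and Wrn (r = 0.953). The low counts of Pdcd1lg2 gave its best values with Cxcl13 (r = 0.922) and Wfdc18 (r = 0.906).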

How the data were processed

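RNA was sequenced from 12 PMφ cultures in 4 groups of 3, assigned by the treatment given in the labels. Per the study's methods and the submitters' processing notes, the authors made poly(A) libraries, trimmed reads with Trimmomatic (version 0.32), aligned them to mm10 (GRCm38) with STAR (version 2.5.1b) and counted the reads in exons of GENCODE genes with featureCounts. The deposited signal consists of whole numbers: gene counts that the authors multiplied by 1 factor per library (0.764 to 1.41, estimated from the spacing of the values) and rounded. Reads were not recovered exactly, so tests for raw counts, which had been laid out as a possibility, were not used.

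Values were compared with limma (version 3.58.1, R 4.3.3; trended empirical Bayes) on log2(value + 1), over genes at 10 or more in at least 3 of the libraries compared, with Benjamini-Hochberg adjustment over all genes tested and a threshold of 0.1, as in the study. A gene below 10 in a group could pass this filter through the other group alone, which favoured a call in that direction. A fold change on this scale understates that of low genes. The procedure was tested on simulated data, with replicates set to spread less than those of Cd40, Icosl and Cd80 did with LPS. That test therefore does not measure its error rate on these data. Alternatives were the replicate number as a block, the pseudocount, the filter, the scaling, the variance trend and leaving out libraries. The replicate numbers were taken as pairing the libraries because each pool of littermates was divided among the groups, and same-numbered libraries deviated together (r between 0.30 and 0.73 over 11186 genes, all pairs of groups). The labels give only a replicate number, so that each number is a separate pool was inferred from the methods. P-values without the block measure the spread between the libraries of a group. With the block they measure the spread of the differences within replicate numbers. The comparisons share libraries, since each group enters several of them, and are thus not independent.

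The members and lists were chosen with earlier results of these data known. The text names the 8 members, the genes of 6 other lists as counts with up to 4 called genes of smallest p between LPS and control, the 2 genes closest to each member, and 7 marker lists; genes called under the block, those that lost a call and those named for their partner were added after their values were seen. The values of 1 gene that this rule names are not reported here. Gene positions and exon lengths came from GENCODE vM21 (GRCm38). The authors counted reads on an earlier GENCODE release, so the values, shares and ratios per kb are approximate. A spreadsheet had turned 25 symbols into dates, at most 0.165% of a library, and these were not assigned.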

Additional observations from a re-analysis of the deposited data

How the results depend on the processing

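The calls between LPS and control held under all alternatives run for Cd40, Cd80, Cd86, Cd274, Icosl and Lgals9, and so did those between oxLDL+LPS and oxLDL. With the libraries left out in turn, 7 to 8 and 6 to 7 of the 8 ligands were called in these comparisons, 0 between oxLDL and control, 0 to 1 between oxLDL+LPS and LPS (Cd86 without oxLDL+LPS replicate 2, adjusted p = 0.07484) and 0 in the interaction. Pdcd1lg2 between oxLDL+LPS and oxLDL was called with all 12 libraries in the fit (adjusted p = 0.09621). Quantile normalization, no filter, no variance trend and all 12 libraries in the fit each ended the call of Cd48 there (adjusted p of 0.9521, 0.1005, 0.1121 and 0.1002), and quantile normalization also that between LPS and control (0.5647).

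The replicate block raised the calls between oxLDL+LPS and LPS from 0 to 3 of the 8 ligands and from 0 to 1682 genes, and between oxLDL and control from 0 to 601 genes; it changed no other call of the 8. Fits added after seeing the data combined the block with another choice. Between oxLDL+LPS and LPS they called 1 ligand (Cd40) with the same total (adjusted p = 0.06189) or quantile normalization (adjusted p = 0.09025), and without replicate 2 of each group 6 (Cd40, Cd80, Cd86, Cd274, Icosl and Lgals9). Between oxLDL and control the block without replicate 3 of each group called 1 ligand (Cd274, adjusted p = 0.03992). With only 2 pairs left, such fits have 1 residual degree of freedom per gene and lean on the spread shared over genes. Between oxLDL+LPS and LPS, the block without replicate 1 called 71 genes and without replicate 2 called 2945. Of the values of single ligands under the alternatives, 695 kept their direction or stayed uncalled, 14 gained a call, 14 lost one and none reversed with a call. Depth limited Pdcd1lg2 in all groups, and Icosl and Cd40 without LPS.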
